A study of Mus musculus with 2 samples.

Results

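Fibro/adipogenic progenitors (FAPs) are the resident mesenchymal cells of skeletal muscle, which lay down matrix, feed signals to myofibers, vessels and nerves, and can become adipocytes. A large class of them is marked by Cxcl14, a secreted chemokine, together with genes of the basement membrane and of steroid metabolism, and sits apart from the Dpp4-type class, which carries Pi16, Sema3c and Anxa3. The cells described here are Cxcl14-type FAPs without a transcript of Wnt4, Pcsk2 or Rtl4. They were chosen by measured counts, from all 8481 cells of 2 single-cell libraries. For each cell, P is the sum of the unique molecular identifiers (UMIs, 1 for each captured RNA molecule) of Pi16, Sema3c, Anxa3 and Efemp1 per 10000 UMIs of the cell. Members had P under 25 per 10000, Cxcl14 at 5 or more per 10000, and 0 UMIs of Wnt4 (a secreted Wnt ligand), Pcsk2 (a prohormone convertase) and Rtl4 (a retrotransposon-derived gene). There were 1184 of them, or 13.96% of all cells.

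The libraries came from limb muscle of 3-week-old C57BL/6 mice and were made from live FAPs sorted as negative for the lineage markers CD45 and CD31, negative for Vcam1 and positive for Sca1, with 1 library for each genotype. Bap1WT mice carried Bap1f/f, the conditional allele of the deubiquitinase gene Bap1, without Cre. Bap1ΔMPC mice carried Prx1-Cre;Bap1f/f, in which Cre is expressed in the mesenchyme of the developing limb and thus in FAPs and other cells of that origin. How many mice were pooled for a library is not given in the sources used here. With 1 library per genotype, genotype and library cannot be told apart, no difference has a replicate check, and every interval below is a 95% interval for counting error alone.

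The library from Bap1WT mice held 4103 cells and 51015705 UMIs, and the library labelled Bap1ΔMPC held 4378 cells and 49540066 UMIs. Members had a median of 11638 UMIs and 3428 genes in the first and 10638 UMIs and 3260 genes in the second, with mitochondrial UMIs at medians of 2.82% and 2.83%. Ribosomal protein genes took a median of 11.2% and 14.8% of a member's UMIs. The libraries shared 5 cell barcodes, and no barcode was a member in both. Bap1 itself was not lower in the library labelled Bap1ΔMPC. It had 111 UMIs in Bap1WT members, or 17.9 per 1000000 UMIs summed over these cells (CPM), and 166 UMIs in the others, or 23.4 CPM (log2 ratio 0.39, interval 0.03 to 0.75). Counting at the 3′ end does not tell which exons a transcript held, so these values check neither label, and every direction is given by the library labels. Smn1, the survival motor neuron gene, stood at 27.6 and 25.4 CPM, a log2 ratio, the library labelled Bap1ΔMPC over Bap1WT, of -0.12 (interval -0.43 to 0.19).

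The genes of the rule are protein-coding in the GENCODE annotation of GRCm38, the same assembly as mm10. Cxcl14 lies on the minus strand of chromosome 13 from 56288643 to 56296551. Of the 3 genes that had to be absent, Wnt4 lies on chromosome 4 from 137277489 to 137299726, Pcsk2 on chromosome 2 from 143546156 to 143816285, and Rtl4 on chromosome X from 144688907 to 145122411, each on the plus strand.

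The label was checked against Pdgfra, the receptor that defines FAPs, and against markers of other cells. Pdgfra was detected in 97.5% of Bap1WT members and 93.8% of members in the library labelled Bap1ΔMPC, and Ly6a, which encodes the sort marker Sca1, in 94.9% and 94.4%. Vcam1, against which the cells were sorted, had 446 and 415 UMIs. Ptprc, which encodes CD45, Cd3e, Pax7, Myod1, Myf5, Cldn5 and Vwf had 0 UMIs in the members of either library. Pecam1, which encodes CD31, had 9 UMIs in 8 Bap1WT members and 61 UMIs in 46 members of the other library. Of the other endothelial markers, Egfl7 had 10 and 40 UMIs and Tek 287 and 155. Between the libraries, 2 of 4 tested endothelial markers were above 0 on the log2 scale and 2 below. The summed level of 8 immune markers was 6.30 CPM in Bap1WT members and 21.7 CPM in the others, with 4 of the 8 at 0 in both and 112 of the UMIs of the second library from Lyz2. The summed level of 8 endothelial markers was 54.7 and 38.6 CPM, that of 7 muscle stem cell markers 80.7 and 63.7 CPM, that of 7 mural markers 107 and 78.5 CPM, that of 5 erythroid markers 24.7 and 11.98 CPM, and that of 7 myofiber markers 94.4 and 45.5 CPM. For 6 Schwann cell markers it was 17.9 and 92.2 CPM, of which S100b gave 91 and 631 UMIs while Sox10 had 1 and 0. Tendon markers summed to 208 and 386 CPM over 7 genes, cycling markers to 29.5 and 70.9 CPM over 6 genes, and adipocyte markers to 12.4 and 154 CPM over 8 genes. The part that such RNA plays in the ratios below was not tested, apart from the adipocyte genes.

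At the limits of the rule, members were a somewhat larger share of the library labelled Bap1ΔMPC. The share of Cxcl14-type cells that the absence of Wnt4, Pcsk2 and Rtl4 left out differed more. There were 526 members among Bap1WT cells, a share of 12.8% (exact Clopper-Pearson interval 11.8% to 13.9%), and 658 members in the library labelled Bap1ΔMPC, a share of 15.03% (13.98% to 16.1%). The order rests on the minimum of Cxcl14, since with 3 per 10000 the shares were 17.6% and 17.5%, and with 10 per 10000 they were 7.26% and 10.9%. All cells with low P and Cxcl14 at 5 or more, whatever their Wnt4, Pcsk2 and Rtl4, were 13.9% (12.8% to 14.96%) and 23.3% (22.1% to 24.6%) of the libraries. Of these Cxcl14-type cells, members were 92.4% in Bap1WT, where 43 of 569 cells were left out, and 64.5% in the library labelled Bap1ΔMPC, where 362 of 1020 were left out. An absence of 3 genes depends on depth. After each cell was thinned to 5000 UMIs, which left out 120 and 210 shallower cells, members were 96.2% and 74.8% of the Cxcl14-type cells.

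**Figure D1:**
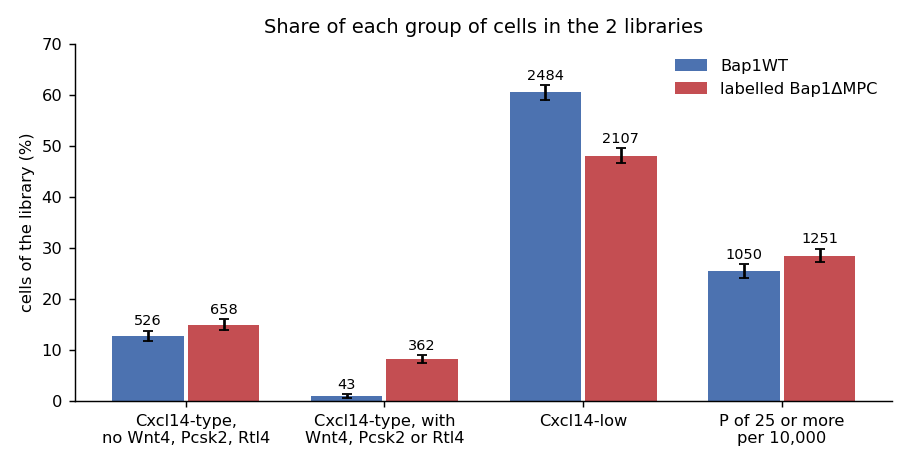
Share of each group of cells in each library, in percent of its cells, with the number of cells above each bar and exact 95% counting intervals. Members are the left pair, at 12.8% and 15.03%, and the Cxcl14-type cells with a UMI of Wnt4, Pcsk2 or Rtl4 are the pair beside it, at 1.05% and 8.27%.

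Cells near the limits of the rule were few on the side of P and many on the side of Cxcl14. Between 5 and 6 per 10000 of Cxcl14 there were 59 and 54 members, and just outside, between 4 and 5, there were 85 and 49 cells. Just inside the limit of P, from 20 to 25 per 10000, there were 9 members in each library, and from 25 to 30 there were 4 cells in each. Only 1 UMI of Wnt4, Pcsk2 or Rtl4 set 37 Bap1WT cells and 167 cells of the library labelled Bap1ΔMPC outside, while 0 and 118 cells had 3 or more. Pcsk2 was the gene most often seen, in 26 and 268 of the cells left out, against 14 and 109 for Wnt4 and 3 and 90 for Rtl4. The members' median P was 2.70 and 1.504 per 10000, with P at 0 in 11.4% and 29.0% of them.

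Among members, Cxcl14 reached higher levels in the library labelled Bap1ΔMPC. The 9 other markers of the class were lower there by uneven amounts, 3 of them over 3-fold and Podn and Col15a1 the least. Cxcl14 had a median of 11.7 per 10000 UMIs in Bap1WT members, with 5.47 at the 5th and 37.3 at the 95th percentile. In the library labelled Bap1ΔMPC the median was 18.6, with 5.54 and 83.2 at these percentiles. The lower ends coincide because the rule sets them, and the upper ends spread apart: 122 members there had 40 or more per 10000, against 23 in Bap1WT. Summed over members, Cxcl14 was at 1437 and 2704 CPM. Smoc2, a matricellular protein of basement membranes, had a median of 25.03 per 10000 UMIs in Bap1WT and 2.13 in the other library, where 206 of 658 members (31.3%) had no UMI of it, against 13 of 526 (2.47%). After thinning, 56.5% of members in the library labelled Bap1ΔMPC and 93.0% of Bap1WT members had a UMI of Smoc2. The 2 clouds of cells overlap, since the 95th percentile in the library labelled Bap1ΔMPC, 27.0, lies above the median of Bap1WT. Its summed level was 2703 CPM and 587 CPM, a log2 ratio of -2.20 (interval -2.25 to -2.15).

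**Figure D2:**
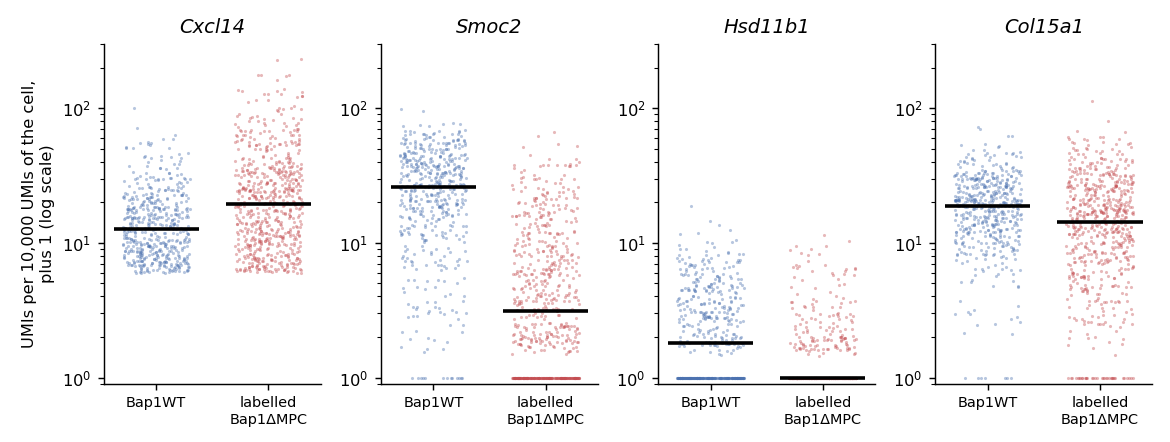
Each point is 1 member, with UMIs of Cxcl14, Smoc2, Hsd11b1 and Col15a1 per 10000 UMIs of the cell plus 1 on a log scale, and black bars are medians. The median of Smoc2 is 25.03 in Bap1WT and 2.13 in the other library, that of Hsd11b1 is 0.811 and 0, and Col15a1 differs least, with medians of 17.8 and 13.3.

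Hsd11b1, the enzyme that regenerates active glucocorticoid, had 1080 UMIs in Bap1WT members and 351 in the others, or 174 and 49.5 CPM (log2 ratio -1.82, interval -1.99 to -1.64). The counterpart that inactivates glucocorticoid, Hsd11b2, went the other way, at 37.5 and 156 CPM (log2 ratio 2.06, interval 1.85 to 2.27). Sparcl1, a matrix protein of the SPARC family, stood at 591 and 189 CPM, past 3-fold. The remaining markers moved less. Col15a1, a collagen at the outer face of basement membranes, was at 1892 and 1593 CPM, a log2 ratio of -0.25 that became 0.03 when cells with Wnt4, Pcsk2 or Rtl4 were also kept. Crispld2 was at 176 and 64.6 CPM, G0s2, an inhibitor of lipolysis, at 339 and 156 CPM, Lum at 2346 and 1703 CPM, Col4a1 at 2944 and 2423 CPM, and Podn at 188 and 181 CPM. Of the 10 Cxcl14-type markers, 9 were thus below 0 on the log2 scale and 3 were over 3-fold lower.

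Smoc2 was lower in the library labelled Bap1ΔMPC in each range of Cxcl14. Between 5 and 10 per 10000 of Cxcl14, with 228 and 179 members, Smoc2 was at 2213 and 495 CPM. With 40 or more per 10000, with 23 and 122 members, it was at 3768 and 865 CPM. Within Bap1WT, members with more Cxcl14 also had more Hsd11b1, from 119 CPM in the lowest range to 291 CPM in the highest, and in the library labelled Bap1ΔMPC the same ranges gave 32.7 and 93.5 CPM. Dpp4 was at 32.9 CPM in the lowest and 9.69 CPM in the highest range in Bap1WT, the latter from 2 UMIs, and at 14.3 and 8.94 CPM in the other library. The Dpp4-type markers as a set were not lower there. Of 10 tested over all members, 6 were above 0 on the log2 scale and 4 below. Past 3-fold, 3 were higher and 0 lower, against 3.17% and 1.86% over all tested genes. The sum of the 10 was 1151 and 1725 CPM. Efemp1, a gene of P, had 187 and 673 UMIs, while Pi16, also of P, had 1472 and 702.

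Smoc2 did differ with Wnt4, Pcsk2 and Rtl4 in the library labelled Bap1ΔMPC. Cells with 1 UMI of these genes had 923 CPM of Smoc2, cells with 2 had 1191 CPM and cells with 3 or more had 1803 CPM, against 587 CPM in the members, which had none. Col15a1 had the same order, with 1593 CPM in members and 2126, 2488 and 3277 CPM in those cells. In Bap1WT the members had 2703 CPM of Smoc2 and the 37 cells with 1 UMI had 3263 CPM. The 6 cells with 2 UMIs had 2481 CPM, too few cells to decide the order there. The Bap1WT cells left out had 3157 CPM of Smoc2, above members (log2 ratio of members over these cells -0.22, interval -0.30 to -0.15). Col15a1 was also higher in them, at 2205 CPM against 1892 CPM in members (log2 ratio -0.22, interval -0.31 to -0.13). These ratios were -1.12 and -0.70 in the library labelled Bap1ΔMPC. In the library labelled Bap1ΔMPC, members had higher C4b (137 CPM against 32.9 in the Cxcl14-type cells left out), Lcn2 (114 against 13.9), Masp1 (74.7 against 15.8) and Hp (56.3 against 7.92). Few members held much of this RNA, with 317 of 399 UMIs of Hp and 413 of 809 of Lcn2 in 10 cells. For C4b it was 261 of 973 and for Masp1 116 of 530. Igf1 was at 2440 CPM in both groups of that library, with an interval of the log2 ratio from -0.04 to 0.04.

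Members were next set beside the cells of the same library with P under 25 and Cxcl14 under 5 per 10000, of which there were 2484 and 2107. The cells of both groups were chosen on these counts, so the ratios are a description. A gene was counted when each library had it past 2-fold on the same side. Of 12603 genes with 20 or more UMIs in each library, 59 were higher in members (0.468%) and 163 were lower (1.29%), and the median log2 ratio over all of them was 0.04 in Bap1WT and -0.0010 in the other library. Read against these shares, 2 of 10 Cxcl14-type markers were past 2-fold in both libraries, Cxcl14 by the rule itself and Hsd11b1. The other 8 were also higher in members in both libraries, from a log2 ratio of 0.39 for Sparcl1 in Bap1WT and for Lum in the library labelled Bap1ΔMPC up to 1.39 for Smoc2 in Bap1WT.

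Of the 10 genes highest in members against Cxcl14-low cells, Cxcl14 was set by the rule. Sorl1, a sorting receptor, had 41.8 CPM in Bap1WT members and 7.91 CPM in Cxcl14-low cells, and 8.32 and 2.38 CPM in the other library. Sept4, a septin, had 43.1 against 13.2 CPM and 36.4 against 8.97 CPM. Tenm4, a teneurin of cell adhesion, had 32.1 against 3.25 CPM and 13.3 against 4.17 CPM. Kcna2, a voltage-gated potassium channel, had 12.9 against 1.69 CPM and 16.2 against 5.32 CPM. The log2 ratios of Sorl1, Tenm4 and Kcna2 were larger in Bap1WT. Whether members were the cells with most of these genes differed by gene and library. In the Cxcl14-type cells with Wnt4, Pcsk2 or Rtl4, Kcna2 was at 25.6 CPM in Bap1WT and 33.1 CPM in the other library, above members in both. Sorl1 was at 39.4 and 16.3 CPM and Tenm4 at 27.6 and 22.3 CPM, above members only in the library labelled Bap1ΔMPC. Sept4, at 31.5 and 21.1 CPM, was below members in both. In Bap1WT the intervals of these ratios for Sorl1, Tenm4 and Sept4 spanned both directions. Bmp5, a bone morphogenetic protein, was at 104 against 38.5 CPM in Bap1WT and at 16.2 against 5.49 CPM in the other library, so the ratio to Cxcl14-low cells was alike in both although the level was not. Hsd11b2, Ly6h and 6030408B16Rik completed the 10 highest, with log2 ratios of 1.56, 3.63 and 1.47 in Bap1WT and 1.54, 1.38 and 1.36 in the library labelled Bap1ΔMPC. Bmper, a binder of BMPs, was also past 2-fold, at log2 1.19 and 1.39, as were Ngfr, a neurotrophin receptor, at 1.52 and 1.28, and Pparg, the master regulator of adipocytes, at 1.06 and 1.87.

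Members had less than Cxcl14-low cells of several genes of the Wnt list and of the Dpp4-type markers. Sfrp4, a secreted frizzled-related protein, was at 71.2 CPM in Bap1WT members and 729 CPM in Cxcl14-low cells, and at 90.4 and 689 CPM in the other library. Wnt2 was at 2.10 against 15.7 CPM and 7.05 against 30.02 CPM. In all, 9 of 38 tested Wnt genes were past 2-fold lower in members and 0 were higher, against 1.29% and 0.468% over all tested genes. Among the 9 were the Wnt antagonist Dkk3 (log2 ratios -1.94 and -1.23), the agonist Rspo1 (-1.44 and -1.99) and its receptor Lgr5 (-1.71 and -2.07). Wnt4, which the rule sets to 0 in members, is 1 of the 9. Sema3d, an axon guidance ligand, was at 2.26 against 26.0 CPM and 3.67 against 17.9 CPM. The other genes lowest in members were Cd109, Smpd3, Fam167a, Car8, 1700019D03Rik, Ccdc3 and Prkg2, with log2 ratios from -5.63 to -1.77 in Bap1WT and from -3.39 to -1.86 in the library labelled Bap1ΔMPC. The lowest of these, that of Cd109 in Bap1WT, rests on 1 UMI in members and has an interval of -10.94 to -3.14, and that of Fam167a there rests on 3 UMIs (interval -5.08 to -1.18). Of 10 Dpp4-type markers, 4 were past 2-fold lower in both libraries and 0 were higher, beside the same shares over all tested genes. Dpp4 was at log2 -1.22 and -2.53, and Sema3c and Anxa3, which the rule used, at -1.09 and -1.89 and at -1.51 and -2.13.

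**Figure D3:**
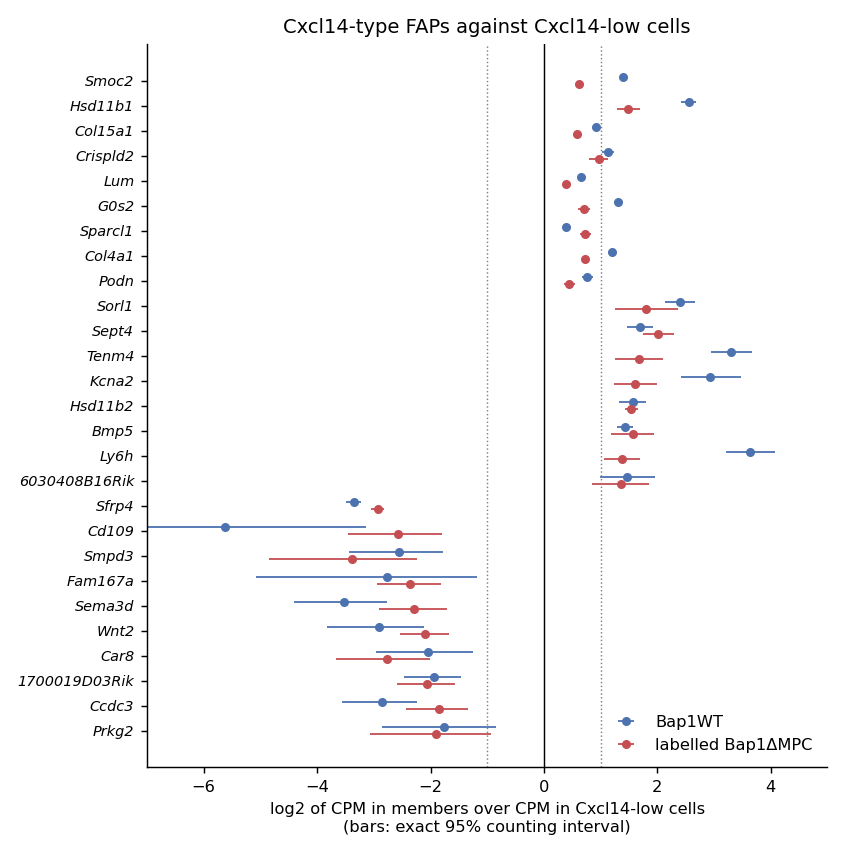
Log2 ratio of CPM in members over CPM in Cxcl14-low cells of the same library, with exact 95% counting intervals and dotted lines at 2-fold. The first 9 genes are Cxcl14-type markers, the next 8 are highest and the last 10 lowest in members, with Sfrp4 at -3.36 and -2.93, and the axis ends at -7, within the interval of Cd109.

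Between the libraries, 11804 genes had 20 or more UMIs in members. Of these, 374 were over 3-fold higher in the library labelled Bap1ΔMPC (3.17%) and 220 were over 3-fold lower (1.86%), with a median log2 ratio of 0.06 and a median absolute log2 ratio of 0.29 over all tested genes. Restricted to 100 or more UMIs, 110 of 8889 genes were higher and 94 lower. Many of the differences were not particular to members: of 589 genes past 3-fold that were also tested in Cxcl14-low cells, 213 were past 3-fold in the same direction there. When the 1% of members with most UMIs of a gene were left out for that gene, 323 genes were higher and 298 lower, of 10932 tested. That step can empty a small sum, which is then set to a floor of 3 counts. It thus cannot show how far the highest cells set the balance of directions.

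The 10 genes with the highest ratios were Hp, Saa3, Epha5, Lcn2, Rgs7, Masp1, Fabp4, Lgals7, Comp and Ahr, and several came from few cells. Hp, which encodes haptoglobin, had 1 UMI in Bap1WT members and 399 in the members of the library labelled Bap1ΔMPC, a ratio of 348 (log2 8.44, interval 5.96 to 13.75), and 317 of the 399 were in 10 cells. Saa3, a serum amyloid, had 1 and 392 UMIs (log2 8.42, interval 5.93 to 13.73), with 373 of them in 10 cells. When the 1% of members with most of each gene were left out, the log2 ratio of Hp was 5.15 and that of Saa3 was 3.24. That step also removed the only UMI of each gene in Bap1WT members, whose sums were then set to the floor of 3 counts. Part of each fall thus comes from the floor. Lcn2, an iron-scavenging lipocalin, was spread more widely, with 6 UMIs in 4 Bap1WT members and 809 UMIs in 94 members of the other library, of which 413 were in 10 cells. Epha5, an ephrin receptor, had 1 and 198 UMIs, and Rgs7, a regulator of G-protein signaling, had 1 and 101, with 75 and 82 members holding a UMI in the library labelled Bap1ΔMPC. Comp, a cartilage matrix protein, stood at 5.97 and 177 CPM, Lgals7, a galectin, at 0.807 and 24.0 CPM, and Ahr, the aryl hydrocarbon receptor, at 2.58 and 48.1 CPM. All 10 genes with the highest ratios were also higher in Cxcl14-low cells of that library, from a log2 ratio of 1.82 for Ahr to 8.15 for Hp.

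Among the 10 genes with the lowest ratios, Tgfbi, an adhesive matrix protein, was at 541 CPM in Bap1WT members, where 499 of 526 had a UMI, and at 69.8 CPM in the library labelled Bap1ΔMPC, where 192 of 658 had one. Clec1a, a C-type lectin receptor, was at 66.7 and 5.64 CPM. Entpd1 and Enpp1, ectoenzymes that break down extracellular nucleotides, were at 32.4 and 3.24 CPM and at 62.0 and 6.34 CPM. Adcyap1r1, the receptor of the neuropeptide PACAP, was at 34.5 and 3.38 CPM, and Agtr1a, an angiotensin receptor, at 49.6 and 6.49 CPM. Fmo2, a monooxygenase, was at 42.8 and 4.37 CPM, Plekha6 at 59.4 and 7.19 CPM, Susd5 at 17.3 and 0.987 CPM, and Lrrtm3, a synaptic adhesion protein, at 16.1 and 1.55 CPM. Each of the 10 was also lower in Cxcl14-low cells, from log2 -1.54 for Adcyap1r1 to -3.28 for Susd5.

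**Figure D4:**
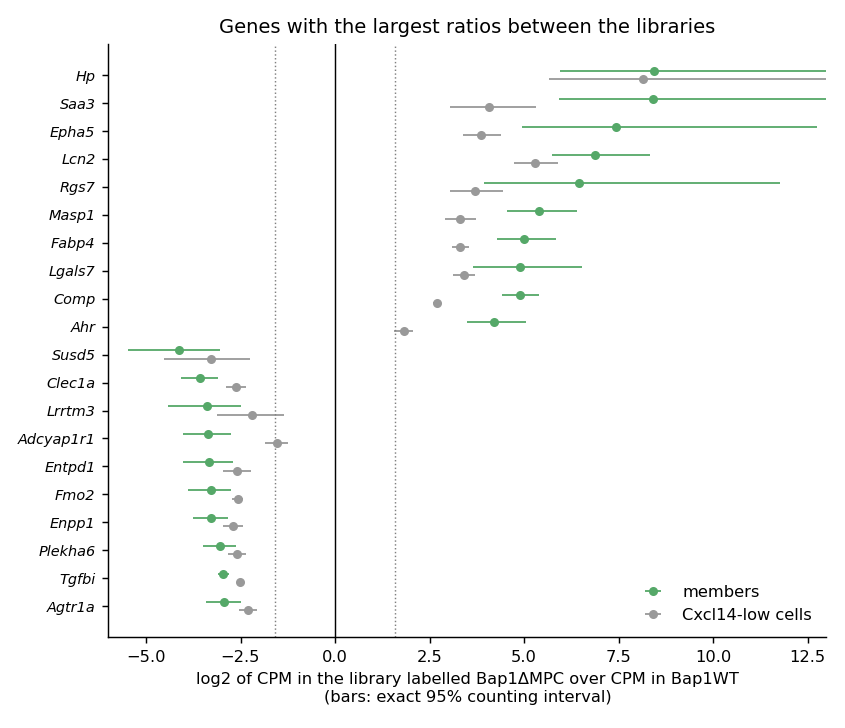
Log2 ratio of CPM in the library labelled Bap1ΔMPC over CPM in Bap1WT for the 10 highest and 10 lowest genes within members (green) and for the same genes in Cxcl14-low cells (grey), with exact 95% counting intervals and dotted lines at 3-fold. The point in members lies farther from 0 than that in Cxcl14-low cells for each of the 20 genes, which were picked for their ratio in members, and the axis ends at 13.

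Most basement membrane genes were at a lower level in members of the library labelled Bap1ΔMPC, with 20 of 28 tested genes below 0 on the log2 scale. Of the 28, 7 were past 3-fold lower, 2 were past 3-fold higher, and the median log2 ratio was -0.67. Over all tested genes, 1.86% were past 3-fold lower and 3.17% higher, and the counts of the lists that follow stand beside these shares. The shares are not matched for level, and genes with few UMIs passed the fold more often. With 100 or more UMIs, 110 of 8889 genes were past 3-fold higher, against 374 of 11804 with 20 or more. The 7 were Smoc2 and Sparcl1, the collagen IV chains Col4a3, Col4a4 and Col4a5 at log2 -2.16, -1.91 and -1.89, hemicentin Hmcn1 at -2.04, and the laminin chain Lamc3, with 55 and 2 UMIs (log2 -4.98, interval -8.06 to -3.06). The 2 higher genes were agrin, Agrn, which organises neuromuscular synapses, at 3.39 and 19.5 CPM, and Smoc1, the paralog of Smoc2, at 0.807 and 11.4 CPM. With the cells holding Wnt4, Pcsk2 or Rtl4 also kept, 4 genes were past 3-fold lower. The abundant members Col4a1 and Nid1 differed less, at log2 -0.28 and -0.19, and Sparc was at 17986 and 9566 CPM. Interstitial collagens had 1 of 22 genes past 3-fold, Col26a1, but their summed level was 82985 and 47863 CPM. Most of that sum was Col3a1 at 31938 and 18739 CPM, Col1a2 at 18218 and 8200 CPM, and Col1a1 at 18067 and 8837 CPM, and these ratios were close to those in Cxcl14-low cells, at log2 -0.77 against -0.57, -1.15 against -1.14, and -1.03 against -1.07.

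Complement genes past 3-fold were all higher. Of 14 tested, 5 were past 3-fold higher (35.7%), 0 were past 3-fold lower, and the median log2 ratio was 0.87. Among the higher genes C3, the central component, was at 63.9 CPM in Bap1WT members and 642 CPM in the library labelled Bap1ΔMPC (log2 3.33, interval 3.18 to 3.48), and it was detected in 104 of 526 members and in 430 of 658, or in 14.1% and 55.6% after thinning. C4b was at 25.2 and 137 CPM, the alternative-pathway factor Cfb at 5.33 and 28.5 CPM, and the lectin-pathway protease Masp1 at 1.78 and 74.7 CPM. In Cxcl14-low cells C4b was at 37.8 and 47.8 CPM, a log2 ratio of 0.34 (interval 0.22 to 0.46) against 2.45 (2.20 to 2.70) in members. The classical-pathway proteases C1s1 and C1ra were at log2 -0.18 and -0.38. The count of 5 was the same after thinning, after leaving out members with adipocyte transcripts and after leaving out the top 1% of members for each gene.

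Immune signals were mixed. Of 24 chemokines and cytokines, 3 were past 3-fold higher and 2 lower, with a median log2 ratio of 0.45. Cxcl10, an interferon-induced chemokine, was at 122 and 375 CPM, and Cx3cl1 at 1.29 and 7.05 CPM, while Cxcl5 had 3 and 17 UMIs (log2 2.31, interval 0.52 to 4.72). The lower ones were Il15 at 17.9 and 5.22 CPM and Tslp at 15.3 and 4.37 CPM, both cytokines that act on lymphocytes and other leukocytes. Ccl11 was at 1051 and 562 CPM and Cxcl12 at 300.3 and 182 CPM. Of 35 genes of the interferon response and MHC class I, 31 were above 0 on the log2 scale, 3 past 3-fold, with a median of 0.48. These 3 were Ifi27l2a at 43.3 and 373 CPM, Isg15, a ubiquitin-like modifier, at 11.8 and 59.2 CPM, and the immunoproteasome subunit Psmb9 at 7.75 and 28.9 CPM.

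Adipogenic genes past 3-fold were all higher, and for some of them this rested on few cells. Of 29 tested, 7 were past 3-fold higher (24.1%) and 0 lower, with a median log2 ratio of 0.36. Pparg had 26 and 189 UMIs, in 21 and 100 members, and Fabp4, a fatty acid carrier, had 15 and 553 UMIs, of which 356 were in 10 cells. Adipoq, the adipocyte hormone, had 0 UMIs in Bap1WT members and 29 in the other library, at least 8.44-fold higher against a floor of 3 counts in the Bap1WT sum, and Plin1, a lipid droplet coat protein, had 1 and 76 (log2 6.05, interval 3.53 to 11.37). Plin4, Fabp5 and Car3 were the rest. A UMI of Adipoq, Plin1, Cidec or Car3 was found in 5 of 526 Bap1WT members (0.951%) and in 55 of 658 (8.36%) in the library labelled Bap1ΔMPC, and in 0.886% and 4.22% of Cxcl14-low cells. Leaving these members out sets Adipoq, Plin1 and Car3 to 0 by construction, so the count of the list had to fall. Without these members, 3 genes of the list were past 3-fold higher, Pparg at log2 2.09 and Fabp4 at 3.64 among them. The count over all genes was then 345 higher and 218 lower. Leaving out the top 1% of members for each gene gave 4, with Pparg at log2 2.99 and Fabp4 at 5.08, beside 2.67 and 5.01 over all members. That step also lowered the small Bap1WT sums, in which Fabp4 had 15 UMIs in 12 members. These ratios thus cannot show whether the difference rests on few cells. Lpl, the most abundant gene of the list, was at 1763 and 1452 CPM, and the sum of the list was lower, at 5836 and 5232 CPM.

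In the BMP and TGF-beta list, 4 of 36 tested genes were past 3-fold lower (11.1%) and 1 was higher. The list as a whole was not lower, with 25 genes above 0 on the log2 scale, a median log2 ratio of 0.30 and a sum of 5469 and 6554 CPM. The 4 lower genes encode ligands. Bmp4 was at 283 CPM in Bap1WT members and 68.4 CPM in the library labelled Bap1ΔMPC, Bmp5 at 104 and 16.2 CPM, and Inhba, the activin A subunit, at 40.5 and 8.04 CPM. Bmp6 had 28 and 2 UMIs, a log2 ratio of -4.00 (interval -7.12 to -2.02), and in Cxcl14-low cells it was at 4.14 and 4.81 CPM. The higher gene was the stress-induced ligand Gdf15, at 3.39 and 15.5 CPM. The antagonist Fst was at 319 and 649 CPM and the BMP target Id3 at 622 and 953 CPM.

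Neurotrophic and axon guidance genes had 10 of 51 past 3-fold higher (19.6%) and 0 lower, with a median log2 ratio of 0.22 and a sum of 1960 and 1938 CPM. Bdnf, a neurotrophin, had 7 UMIs in 4 Bap1WT members and 123 UMIs in 50 members of the library labelled Bap1ΔMPC (log2 3.94, interval 2.85 to 5.28). The semaphorin receptor Plxnd1 was at 18.9 and 75.6 CPM and Epha7 at 3.87 and 16.8 CPM. Agrn, which is also in the basement membrane list, Nrtn, Slit2, Efna5, L1cam, Chl1 and Cntn1 were the other 7, with 3 to 21 UMIs in Bap1WT members and 18 to 138 in the others. Of these, Chl1, an adhesion protein of the L1 family, had log2 2.78 (interval 1.72 to 4.05) in members and -0.44 (-1.08 to 0.18) in Cxcl14-low cells, and Slit2 had 1.86 (1.14 to 2.64) and -0.08 (-0.51 to 0.35). The abundant growth factors Mdk and Ptn were at log2 -0.05 and -0.54, and Ret, a receptor of the GDNF family, at 160.3 and 71.3 CPM.

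In the insulin-like growth factor list, 1 of 15 tested genes was past 3-fold (6.67%), Igfbp2, at 2.10 and 8.60 CPM. Igfbp7, a binding protein, was at 1963 and 1945 CPM. Igf1 was at 1095 CPM in Bap1WT members and 2440 CPM in the library labelled Bap1ΔMPC, with cell medians of 9.57 and 20.9 per 10000 UMIs, and Igfbp4, a binding protein of IGFs, at 965 and 2245 CPM, with medians of 8.24 and 15.3. Both log2 ratios, 1.16 and 1.22, were below 3-fold and above those in Cxcl14-low cells, 0.54 and 0.58. Among retinoic acid genes, 5 of 24 were past 3-fold higher and 2 lower, with a median log2 ratio of 0.14 and a lower sum, 1633 and 1371 CPM. Rbp4, the retinol carrier, was at 79.3 and 285 CPM and Aldh1a2, which makes retinoic acid, at 27.4 and 89.2 CPM, while Adh1, an alcohol dehydrogenase and 1 of the lower genes, was at 117 and 38.3 CPM. Cyp26b1, which degrades retinoic acid, was at 7.10 and 22.6 CPM, against 12.2 and 13.9 CPM in Cxcl14-low cells.

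**Figure D5:**
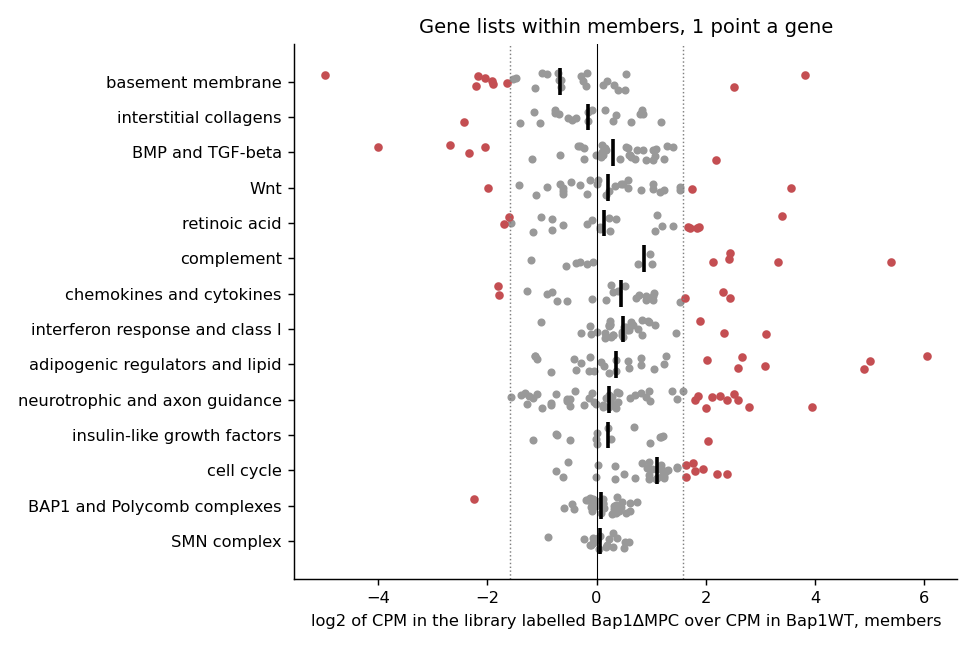
Each point is 1 gene of a list with 20 or more UMIs in members, placed at its log2 ratio of CPM in the library labelled Bap1ΔMPC over CPM in Bap1WT. Red points are past 3-fold (dotted lines) and black bars are list medians, from -0.67 for the basement membrane to 1.10 for the cell cycle, with 0.06 over all tested genes.

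A group of genes that earlier results of these data had tied to Spon1 was higher in members than in Cxcl14-low cells and higher again in the library labelled Bap1ΔMPC. Spon1, a matrix protein of the spondin family, was at 50.2 CPM in Bap1WT members and 23.9 CPM in Cxcl14-low cells, and at 395 and 135 CPM in the other library, where 422 of 658 members had a UMI of it against 119 of 526. Cldn2, a claudin, and Hsd11b2 had the same order, and the log2 ratio between libraries was 2.98, 2.82 and 2.06 for the 3. Angpt4 was at 10.7 and 27.9 CPM in members. As the group was drawn from these libraries, its direction is not independent evidence.

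In the cell cycle list, many genes of low level were higher in members of the library labelled Bap1ΔMPC, while the sum of the list was 1318 and 1323 CPM (log2 ratio 0.01, interval -0.04 to 0.05). Of 34 genes tested, 30 were above 0 on the log2 scale and 7 past 3-fold (20.6%), with a median of 1.10. The 7 were Ccnb1, Cenpf, Cenpe, Cdc20, Rrm2, Ccne2 and Cdkn2b, with 5 to 23 UMIs in Bap1WT members and 20 to 82 in the others, and the count was 4 after thinning and 3 with the minimum of Cxcl14 at 3 per 10000. Few cells held most of these UMIs in the library labelled Bap1ΔMPC, with 22 of 22 of Ccnb1, 63 of 68 of Cenpf and 55 of 82 of Rrm2 in 10 cells. The inhibitor Cdkn1c was at 685 and 407 CPM and Cdkn1a at 91.7 and 215 CPM.

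The remaining lists had 0 to 3 genes past 3-fold, save for 1 group drawn from these libraries. The 41 tested genes of BAP1 and Polycomb complexes had a median log2 ratio of 0.09 with 1 past 3-fold, Cbx7, at 33 and 8 UMIs. The 19 genes of the SMN complex had a median of 0.06 and 0 past 3-fold in either direction. Of 30 Wnt genes, Wnt2 and Wnt6 were past 3-fold higher and Wisp1 lower. Against 3.17% higher and 1.86% lower over all tested genes, 3 of 22 FGF genes (13.6%), 3 of 27 vascular genes (11.1%) and 3 of 19 tendon and cartilage genes (15.8%) were past 3-fold higher and 0 lower. Imprinted genes had 2 of 27 higher and 1 lower, elastic fibre genes 2 of 20 higher and 1 lower, and small leucine-rich proteoglycans 1 of 13 higher and 0 lower. There was 1 gene higher and 1 lower among each of 34 matrix protease and inhibitor genes, 25 glucocorticoid and steroid genes, 24 integrins and cadherins, 16 Hox genes and 30 immediate early and dissociation genes. Of the small groups tied to other FAPs in earlier results of these data, the tendon-like one had 1 of 3 genes past 3-fold higher and the adipocyte-type one 5 of 5, the Hmcn1 one had 1 of 3 past 3-fold lower and the Fmo2 one 1 of 2, and the Lgr5 one had 0 of 3 either way.

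A set of 5 genes had the library ratio in members that lay farthest from the ratio in Cxcl14-low cells. Sfrp2, a secreted frizzled-related protein, was at 41.8 and 57.1 CPM in members but at 402 and 66.3 CPM in Cxcl14-low cells, so the libraries differed in the second group and little in the first. Stmn2, a microtubule regulator of neurons, was at 1.13 and 14.5 CPM in members and at 22.0 and 21.9 CPM in Cxcl14-low cells. Tac1, the precursor of substance P, was at 1.45 and 25.8 CPM in members, with 156 of its 183 UMIs in 10 cells, and at 12.2 and 22.7 CPM in Cxcl14-low cells. Saa3 and Epha5 were the other 2, with log2 ratios of 8.42 against 4.06 and 7.43 (interval 4.94 to 12.74) against 3.86, each resting on 1 UMI in Bap1WT members.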

How the data were processed

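The data were raw UMI counts per gene and cell, which the authors made with Cell Ranger 3.1.0 on mm10 and deposited (version and build from the submitters' processing notes). Their methods describe quality control, doublet gating and removal of non-FAPs in Seurat, with thresholds not given in the sources used here. Every deposited cell had 1501 to 4998 genes and under 5% mitochondrial UMIs, as a filter on both would leave. No further cell was removed and no doublet caller was run. The table had 31053 genes.

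For each group of cells the UMIs of a gene were added up and divided by the group's total, giving CPM. Ratios of these CPM values have exact conditional binomial intervals, and shares have exact Clopper-Pearson intervals, both at 95%. Genes entered with 20 or more UMIs in the sums compared, and a sum of 0 was set to a floor of 3 counts. Calls were made by size, over 3-fold between libraries and over 2-fold against Cxcl14-low cells, and no p-value was computed. The members, the cell type markers and the 31 gene lists were chosen with earlier results of these data known. Named genes were the genes of the rule and the markers, the 10 highest and 10 lowest of each comparison with 100 or more UMIs, the most abundant and most changed genes of each list, and the 5 whose library ratio differed most from that in Cxcl14-low cells. Within the lists, other genes past the fold were named after their values were seen.

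Alternatives changed the limits of the rule, depth (each cell thinned to 5000 UMIs, shallower cells left out), the scaling (the median of ratios, and TMM with edgeR 4.0.16, used for scaling alone), the minimum of UMIs and the fold, and 3 were chosen after seeing the data. Ratios were tested on simulated data. Python 3.11.15 and scipy 1.17.1 were used. Some genes counted in the lists are not reported here by name.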

Additional observations from a re-analysis of the deposited data

Results flagged for a closer look

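Cnmd, which encodes the cartilage glycoprotein chondromodulin, was over 3-fold apart between the libraries in opposite directions in members and in Cxcl14-low cells. It had 3 UMIs in Bap1WT members and 18 in the members of the library labelled Bap1ΔMPC, a log2 ratio of 2.39 (95% counting interval 0.61 to 4.80). In Cxcl14-low cells it had 40 and 5 UMIs, a log2 ratio of -2.64 (interval -4.34 to -1.30). The difference between these ratios was not tested, and it was the only gene of the 589 tested in both that met these conditions.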

How the results depend on the processing

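The share of members in Bap1WT and in the library labelled Bap1ΔMPC was 17.6% and 17.5% with the minimum of Cxcl14 at 3 per 10000, 7.26% and 10.9% with it at 10, and 17.2% and 21.0% as a share of cells with P under 25. In the library labelled Bap1ΔMPC it was 23.3% with cells holding Wnt4, Pcsk2 or Rtl4 also kept and 17.1% after thinning. Genes over 3-fold between the libraries numbered 238 higher after thinning, 110 higher and 94 lower with 100 or more UMIs, 729 and 441 with 1 or more UMIs, and 788 and 590 at 2-fold. Genes over 2-fold between members and Cxcl14-low cells in both libraries numbered 89 higher with the excluded cells kept, 31 higher and 83 lower with 100 or more UMIs, 162 higher with 1 or more UMIs, and 9 and 58 at 3-fold. TMM factors and the median of ratios kept each of these counts within 1.5 times, with 354 higher and 237 lower and 362 higher and 233 lower between the libraries. Of 1703 recomputed library ratios of 132 named genes, 1481 stayed within their counting interval, 222 moved outside it, and no ratio past 3-fold changed sign. Of 594 genes past 3-fold, 390 were past it without the top 1% of members for each gene and 367 among members with Cxcl14 under 20 per 10000, the alternatives chosen after seeing the data, where 269 were higher and 187 lower. Genes with under 100 UMIs have wide counting intervals, and neither depth nor more cells would stand in for a second library of a genotype. No paired analysis was possible because there was 1 library a genotype and no replicate number to pair.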

Other observations

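Some of the genes that were high in few members were high in the same ones and others were not. In the library labelled Bap1ΔMPC, 5 or more UMIs of Saa3 were found in 8 members, of Hp in 15, of Fabp4 in 20, of Lcn2 in 38 and of Comp in 57. Hp and Fabp4 shared 8 members, 53.3% of those with Hp and 40.0% of those with Fabp4. Lcn2 and Comp shared 21, or 55.3% and 36.8%. Car3 and Fabp4 shared 6 members, 66.7% of the 9 with Car3 and 6 of the 20 with Fabp4. Epha5 and Comp shared 7, or 53.8% and 12.3%. C3, which 254 members held at this level, was shared by 59.6% to 77.8% of the members with each of the 9 other genes compared. Hp and Lcn2 shared 2, and Saa3 and Hp shared 1. These genes and the limit of 5 UMIs were chosen after their values were seen.

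Of 30 tested immediate early and dissociation genes, 1 was past 3-fold higher and 1 lower between the libraries (3.33% each), near the shares over all tested genes of 3.17% and 1.86%. Nr4a2, an immediate early nuclear receptor, was at 35.0 and 138 CPM in the members of Bap1WT and of the library labelled Bap1ΔMPC, and Hspa1b, a heat shock protein, at 399 and 107 CPM. In Cxcl14-low cells the log2 ratios of these genes were 1.12 and -1.38. Fos was at 3394 and 5019 CPM in members.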
